A study of Mus musculus with 12 samples.

Results

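The neural stem cell identity genes described here are Nes, Vim, Pax6, Prom1, Fabp7, Msi1, Msi2, Nr2e1, Rfx4 and Cd9, 10 genes taken by name from 43309 features in the day 5 table and 42802 in the day 9 table. All 10 were listed in both tables and passed the filter on low counts at both days. They were followed in cultured mouse neural progenitor cells of strain C57BL/6 after loss of lamin B1, a protein of the nuclear lamina. The 12 polyA RNA libraries form 4 groups of 3. The cKO groups carried floxed Lmnb1 alleles and were taken at day 5 and day 9 after a lentivirus that drives Cre recombinase from a Sox2 promoter. The WT groups carried wild-type Lmnb1 alleles and received the same virus for the same times. Every group also carried the Cre-dependent reporter Ai3, and EYFP-positive cells were sorted before RNA was isolated. All cells grew with 10 ng/ml each of EGF and FGF-2. Cre from a Sox2 promoter selects cells in which that promoter was active, and Sox2 itself did not pass the test at either day, with log2 fold changes of 0.17 at day 5 and 0.07 at day 9. Nothing in the labels says that replicates are independent cultures, so a p-value here speaks only of the spread among libraries, which may be technical.

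Neural stem and progenitor cells are recognised by a shared set of structural proteins, transcription factors, RNA-binding proteins and surface antigens rather than by any single gene. Nestin and vimentin build the intermediate filaments of these cells, and the transcription factors Pax6, Nr2e1 and Rfx4 act in forebrain progenitors. Several of the genes remain active in other neural cells: Vim, Fabp7 and Pax6 in astrocytes, and Cd9 in the oligodendrocyte lineage.

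The targeted gene Lmnb1 stood at 37.8, 40.7 and 45.0 CPM in cKO libraries at day 5, against 288, 255 and 247 CPM in WT libraries, and at 34.3, 32.8 and 39.4 CPM in cKO libraries at day 9, against 156, 210 and 188 CPM in WT libraries. CPM are counts scaled to an effective library size, the total over genes that passed the filter times a TMM scaling factor. They are thus not counts divided by the library totals given next. Library totals ran between 26720476 and 28540036 counts in cKO and between 29460342 and 32127629 counts in WT at day 5, and between 13315273 and 22988447 counts in cKO and between 24412935 and 24662809 counts in WT at day 9. At day 9, 12 features grouped as structural RNA, chiefly Gm42418, took 72.5%, 0.362% and 71.3% of counts in cKO libraries, against 15.9%, 34.9% and 17.9% in WT libraries. This left 3665376, 22905184 and 3940622 other counts in the cKO libraries. At day 5 cKO replicate 2, with 14.4% of counts on those features, and WT replicate 1 stood apart from the other libraries of their groups. For the identity genes, the log2 fold changes at each day are given with and without these libraries. Leaving out cKO replicates 1 and 3 of day 9 leaves a single cKO library, so that fold changes of the identity genes in that setting are given as values with no test.

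Each gene lies in GRCm38 (mm10) at the position that the GENCODE M21 annotation gives, and all 10 are protein coding. Nes lies at chr3:87971078-87980451, Vim at chr2:13573927-13582826, Pax6 at chr2:105668900-105697364 and Fabp7 at chr10:57784881-57788450, all on the forward strand. Msi1 at chr5:115429599-115455698 and Rfx4 at chr10:84756062-84906538 are also on the forward strand. Prom1 at chr5:43993620-44102032, Msi2 at chr11:88339382-88718513, Nr2e1 at chr10:42561963-42583632 and Cd9 at chr6:125460266-125494791 are on the reverse strand. Strand use in counting is not given in the sources used here. Where an overlapping feature was counted it was small: the antisense gene Pax6os1 had at most 2 counts in any library, Gm16401 over Prom1 at most 6, Gm15893 over Msi2 at most 57 and Gm28809 over Cd9 at most 43.

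At day 9, after 9 days of Cre, the 2 most abundant identity genes and Nes were lower in cKO cells while 4 others were higher. Nes, Fabp7 and Vim fell 3.92-fold, 2.56-fold and 2.13-fold, and Prom1, Msi2, Pax6 and Cd9 rose 1.998-fold, 1.90-fold, 1.59-fold and 1.37-fold. Msi1, Nr2e1 and Rfx4 did not pass the test. The 7 called genes of 10 are to be read against a background in which 43.6% of 14617 tested genes passed the same edgeR test at that day, 21.0% as higher and 22.6% as lower. The median log2 fold change of the 10 genes was 0.21, against 0.01 over all tested genes. In bulk RNA, fewer cells of a type and less RNA per cell cannot be told apart.

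The sequences before the RefSeq start sites of Nes and Fabp7, which fell together, and of Pax6, which rose, are given from RefSeq in GRCm38.p6, on the forward strand, up to the first base of the gene in GENCODE. They are Nes at chr3:87970843-87971077, Fabp7 at chr10:57784673-57784880 and Pax6 at chr2:105668646-105668895. Capitals mark a CCAAT box (CCAAT) or a GC box (GGGCGG) on either strand.
Nes: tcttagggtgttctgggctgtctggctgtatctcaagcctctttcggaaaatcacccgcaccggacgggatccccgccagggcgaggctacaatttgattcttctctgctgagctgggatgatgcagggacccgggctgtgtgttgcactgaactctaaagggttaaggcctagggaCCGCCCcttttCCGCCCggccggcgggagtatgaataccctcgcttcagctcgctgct
Fabp7: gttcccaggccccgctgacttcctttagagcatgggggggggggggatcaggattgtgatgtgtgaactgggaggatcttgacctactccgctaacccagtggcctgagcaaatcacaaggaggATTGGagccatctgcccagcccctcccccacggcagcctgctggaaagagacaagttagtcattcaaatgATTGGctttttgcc
Pax6: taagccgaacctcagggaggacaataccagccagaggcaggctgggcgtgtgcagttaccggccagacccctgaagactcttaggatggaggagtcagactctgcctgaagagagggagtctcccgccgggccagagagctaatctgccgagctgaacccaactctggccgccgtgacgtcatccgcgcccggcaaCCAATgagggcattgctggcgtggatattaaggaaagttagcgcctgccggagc
RefSeq promoter entries matched 9 of the 10 genes, all but Msi1. In the 250 bases before the first listed start, both strands were searched for the CCAAT box, the TATA box (TATAAA), the GC box, the SOX motif (ACAAAG), the RBPJ motif (GTGGGAA), the ETS core (CCGGAAG) and the E-box (CANNTG). The CCAAT box was found in 6 of the 9, among them Fabp7, Vim and Pax6, and in 33.8% of 32851 windows of the same length. The GC box was found in 4 of the 9, Nes among them, and in 32.7% of all windows. The TATA box was found in 1, Vim, and in 12.4% of all windows. The searched windows of Vim and Prom1 lay wholly within the GENCODE gene, as did 236 of the 250 bases for Msi2. The RBPJ motif was found in 1, Cd9, and in 5.42% of all windows. No window of the 9 held the SOX motif or the ETS core, which 16.5% and 6.91% of all windows hold. The E-box, which is not capitalised, was found in 5 of the 9 and in 66.2% of all windows. No base of the capitalised motifs belonged to 2 of them. The 3 genes that fell shared no motif of this list: the CCAAT box was in 2 of the 3 and the GC box in 1, while each was in 3 of the 4 genes that rose.

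Among the intermediate filament genes, Nes had 81.8, 65.0 and 84.6 CPM in cKO libraries at day 9, against 250.04, 352 and 304 CPM in WT libraries. Every cKO library lay far below every WT library. The log2 fold change was -1.97 ± 0.16 (SE), with an adjusted p of 8.37e-05 in edgeR's quasi-likelihood test. Nes encodes nestin, the filament protein most widely used to mark neural stem cells. Vim, which encodes vimentin, had 326, 444 and 408 CPM in cKO libraries and 777, 847 and 888 CPM in WT libraries. The groups did not overlap, and the log2 fold change was -1.09 ± 0.14, with an edgeR adjusted p of 0.000743. With cKO replicate 2, the library with the least structural RNA, as the only cKO library, the log2 fold changes were -2.25 for Nes and -0.95 for Vim.

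Fabp7, the brain fatty acid binding protein of radial glia, had 445, 509 and 407 CPM in cKO libraries at day 9, against 1193, 982 and 1304 CPM in WT libraries. Every cKO library lay well below every WT library. Its log2 fold change was -1.35 ± 0.15, with an edgeR adjusted p of 0.000335. It was -1.22 with cKO replicate 2 as the only cKO library.

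Among the transcription factors, Pax6, a paired-box regulator of cortical and eye progenitors, had 23.7, 28.5 and 29.0 CPM in cKO libraries at day 9, against 15.6, 18.1 and 17.5 CPM in WT libraries. All 3 cKO libraries were above all WT libraries, and the log2 fold change was 0.67 ± 0.13 with an edgeR adjusted p of 0.00561. The call held without any single library, and ended when all 12 libraries were fitted together (adjusted p = 0.0577, with the same log2 fold change). Nr2e1, the orphan nuclear receptor also called TLX that maintains adult neural stem cells, had 19.5, 22.0 and 22.7 CPM in cKO libraries, against 16.4, 19.5 and 19.1 CPM in WT libraries. The lowest cKO library and the highest WT library almost met, and the gene did not pass (log2 fold change 0.22 ± 0.13, edgeR adjusted p = 0.181). Rfx4, a winged-helix factor of the RFX family needed for normal brain patterning, had 63.1, 71.9 and 67.0 CPM in cKO libraries, against 69.3, 97.4 and 75.2 CPM in WT libraries. The groups overlapped, with a log2 fold change of -0.26 ± 0.14 and an edgeR adjusted p of 0.160. With cKO replicate 2 as the only cKO library, the log2 fold changes were 0.71 for Pax6, 0.23 for Nr2e1 and -0.20 for Rfx4.

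The Musashi genes encode a pair of related RNA-binding proteins that control translation in neural progenitors. Msi2 had 110, 104 and 119 CPM in cKO libraries at day 9, against 69.8, 65.0 and 40.2 CPM in WT libraries. WT replicate 3 was the lowest of all, and the groups did not overlap. The log2 fold change was 0.92 ± 0.20 with an edgeR adjusted p of 0.0107. The call held without any single library, but ended with all 12 libraries in 1 fit (adjusted p = 0.146). Msi1 had 59.4, 55.5 and 67.5 CPM in cKO libraries and 52.6, 47.3 and 60.0 CPM in WT libraries. Its groups overlapped, and it did not pass (log2 fold change 0.19 ± 0.12, edgeR adjusted p = 0.239). With cKO replicate 2 as the only cKO library, the log2 fold changes were 0.79 for Msi2 and 0.028 for Msi1.

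The surface antigens gave the least secure rises. Cd9, a tetraspanin, had 150, 203 and 139 CPM in cKO libraries at day 9, against 114, 129 and 116 CPM in WT libraries. The groups did not overlap, but cKO replicate 2 stood above the other cKO libraries. The log2 fold change was 0.46 ± 0.15 with an edgeR adjusted p of 0.0405. Leaving out any 1 library other than cKO replicate 3 ended the call, at adjusted p from 0.0720 to 0.126, and without cKO replicate 2 the log2 fold change was 0.26. Prom1, which encodes prominin-1 (CD133), a membrane protein used to sort neural stem cells, had 1.87, 3.90 and 2.81 CPM in cKO libraries, against 1.21, 1.83 and 1.40 CPM in WT libraries. These rest on 12, 155 and 20 counts in cKO libraries and 43, 51 and 48 counts in WT libraries. The lowest cKO library lay just above the highest WT library. Its log2 fold change was 0.998 ± 0.335 with an edgeR adjusted p of 0.0419. The call ended without any 1 library other than cKO replicate 1, at adjusted p from 0.0702 to 0.143, and the log2 fold change without cKO replicate 2 was 0.66. It also ended in DESeq2, at an adjusted p of 0.0537. With cKO replicate 2, the highest library for both genes, as the only cKO library, the log2 fold changes were 0.73 for Cd9 and 1.37 for Prom1.

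Across the 10 genes at day 9, the groups did not overlap on CPM for 8. The cKO libraries lay above WT for 5 (Pax6, Prom1, Msi2, Nr2e1 and Cd9) and below for 3 (Nes, Vim and Fabp7). Over all tested genes 57.8% did not overlap on CPM, 27.6% with cKO above and 30.2% with cKO below. On the rescaled TPM described below, the groups of Cd9, Prom1 and Nr2e1 overlapped. Their lowest cKO library had 277, 1.17 and 15.6, against 307, 1.66 and 19.4 in their highest WT library.

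**Figure D1:**
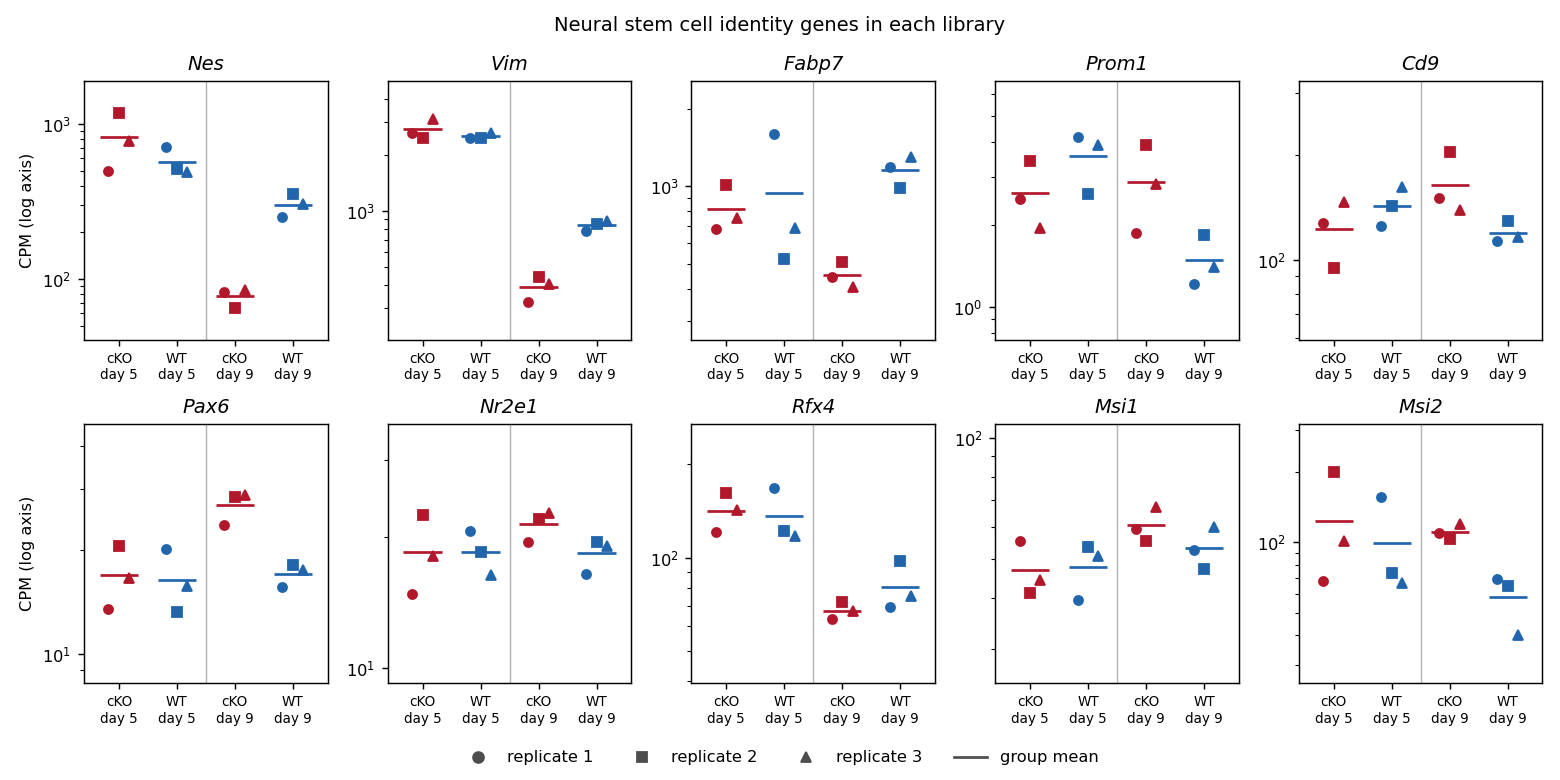
CPM on a log axis for the 10 genes in each of the 12 libraries, with cKO in red and WT in blue at each day; symbols mark the replicate number and bars the group mean. At day 9 Nes, Vim and Fabp7 lie lower in all 3 cKO libraries than in all WT libraries. Pax6, Msi2, Cd9, Prom1 and, narrowly, Nr2e1 lie higher.

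Ratios between genes in the same library do not depend on how libraries are scaled. On TPM, a level per transcript length, Pax6 over Nes was 0.866, 1.22 and 1.02 in cKO libraries at day 9, against 0.171, 0.144 and 0.149 in WT libraries. The mean ratio was 6.70-fold higher in cKO cells, and cKO replicate 2, which has almost no structural RNA, had the highest value. Cd9 over Vim was 0.548, 0.492 and 0.401 in cKO libraries, against 0.159, 0.170 and 0.143 in WT libraries, a mean 3.06-fold higher. The lowest cKO ratio lay far above the highest WT ratio. Nes over Vim was 0.0605, 0.0313 and 0.0478 in cKO libraries and 0.0685, 0.0913 and 0.0732 in WT libraries, without overlap. Msi2 over Msi1 was 0.923, 0.821 and 0.946 in cKO libraries and 0.685, 0.685 and 0.390 in WT libraries, also without overlap. Fabp7 over Vim overlapped, at 2.51, 1.91 and 1.81 in cKO libraries and 2.58, 2.003 and 2.48 in WT libraries. The ratios show unequal change between 2 genes and not which of the 2 changed. They were not tested, and how often other gene pairs separate was not counted. Pax6 over Nes and Cd9 over Vim each set a gene called higher at day 9 over a gene called lower. Higher ratios in cKO cells at day 9 thus follow from those calls. At day 5 Pax6 over Nes and Cd9 over Vim were closer between the groups, with cKO below WT. Pax6 over Nes was 0.0816, 0.0509 and 0.0642 in cKO libraries and 0.0921, 0.0850 and 0.102 in WT libraries, and Cd9 over Vim was 0.0539, 0.0440 and 0.0541 in cKO libraries and 0.0554, 0.0653 and 0.0694 in WT libraries. Neither pair of groups overlapped. The remaining ratios overlapped at day 5. Nes over Vim was 0.0382, 0.0984 and 0.0504 in cKO libraries and 0.0564, 0.0419 and 0.0380 in WT libraries. Fabp7 over Vim and Msi2 over Msi1 overlapped as well.

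**Figure D2:**
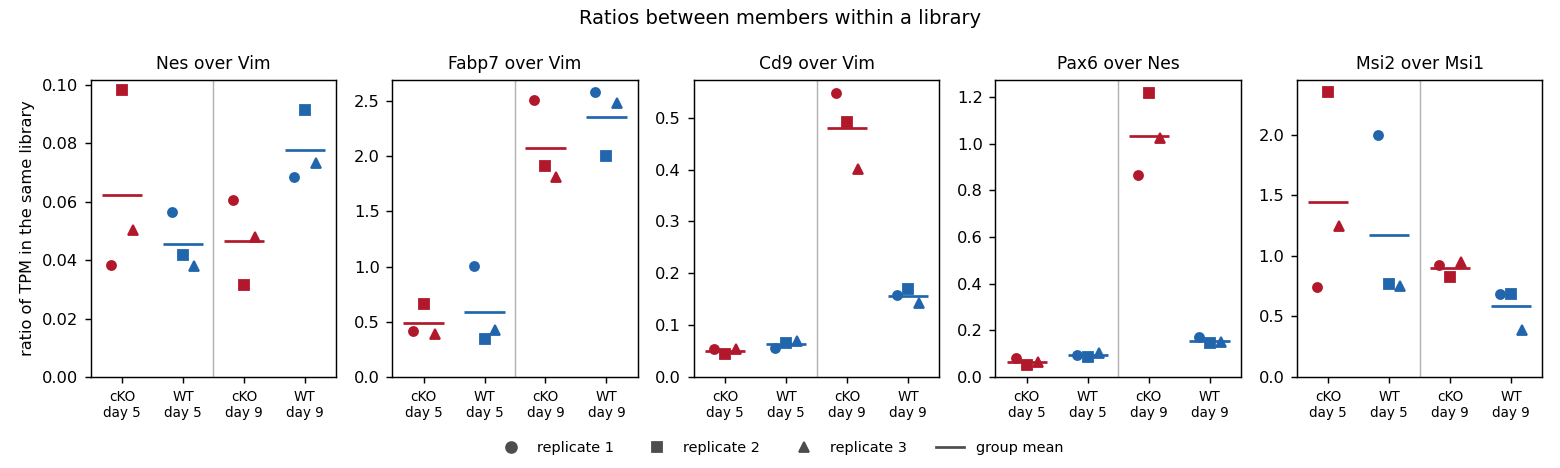
Ratios of TPM between named genes within each library, with linear axes from 0, cKO in red and WT in blue; symbols mark the replicate number and bars the group mean. At day 9 Pax6 over Nes lies between 0.866 and 1.22 in cKO libraries and between 0.144 and 0.171 in WT libraries, while Fabp7 over Vim overlaps.

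Per transcript length, the order of levels also differed. TPM were rescaled to the same total in each library without the structural RNA features for this. At day 9 the cKO order by mean rescaled TPM was Fabp7 at 1533, Vim at 763, Cd9 at 363, Msi1 at 70.2, Msi2 at 62.7, Rfx4 at 52.6, Pax6 at 34.0, Nes at 32.7, Nr2e1 at 18.1 and Prom1 at 2.24. The WT order was Fabp7 at 4152, Vim at 1769, Cd9 at 277, Nes at 138, Msi1 at 66.2, Rfx4 at 65.2, Msi2 at 38.1, Pax6 at 21.0, Nr2e1 at 16.6 and Prom1 at 1.24. Nes held rank 8 in cKO cells and rank 4 in WT cells. Neighbours whose libraries overlapped, and whose order is thus not resolved, were in cKO cells Vim with Cd9, and, along the run Msi1, Msi2, Rfx4, Pax6 and Nes, each gene with its neighbour. They were in WT cells Msi1 with Rfx4 and Pax6 with Nr2e1.

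**Figure D3:**
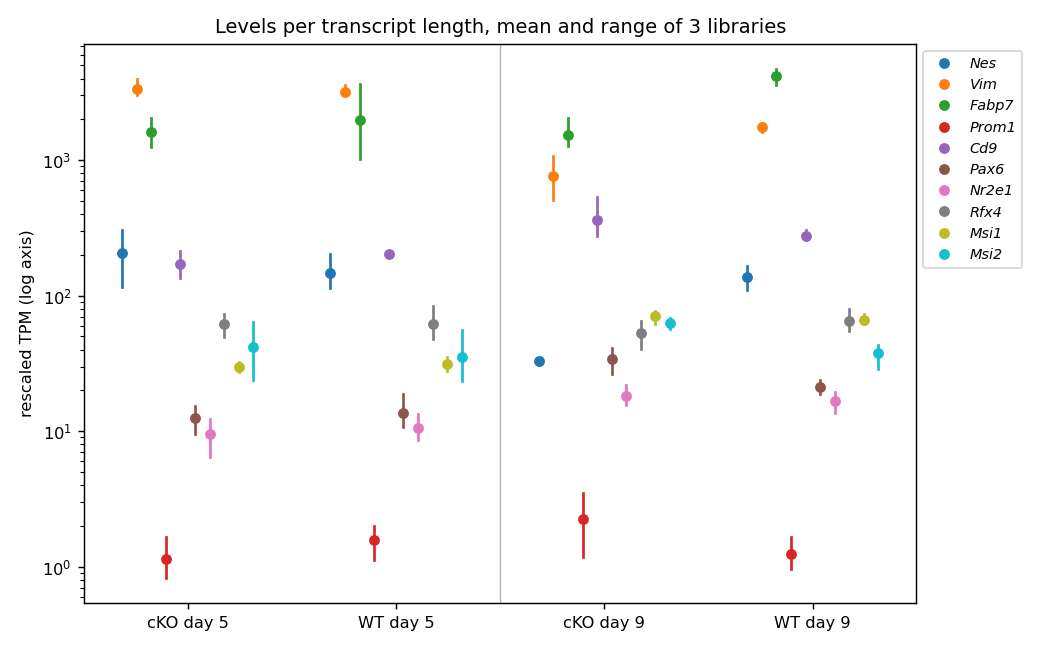
Rescaled TPM on a log axis for the 10 genes in each group, as the mean (point) and range (line) of 3 libraries. Nes averages 32.7 in cKO and 138 in WT at day 9, and Prom1 is the lowest gene in every group.

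At day 5 no identity gene passed the test, and the groups of all 10 overlapped. The log2 fold changes lay between -0.45 for Prom1 and 0.52 for Nes, and their median was 0.02, against 0.01 over all tested genes. Before adjustment 0 of the 10 had a p under 0.05, whether by edgeR, DESeq2 or limma-voom, and each edgeR adjusted p was 0.9999. This is set against 0.00673% of 14849 tested genes called at that day, a single gene, Lmnb1, whose adjusted p was 0.0493 and whose call ended without any 1 library. Groups that did not overlap made up 2.85% of all tested genes, 1.5% with cKO above and 1.35% with cKO below.

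Nes had 500.2, 1186 and 773 CPM in cKO libraries at day 5, against 712, 509 and 490.3 CPM in WT libraries. cKO replicate 2 was the highest of all, and the log2 fold change was 0.52 ± 0.35. Vim had 2635, 2477 and 3114 CPM in cKO libraries and 2479, 2452 and 2606 CPM in WT libraries, with a log2 fold change of 0.13 ± 0.21. Fabp7 had 683, 1008 and 754 CPM in cKO libraries and 1604, 524 and 689 CPM in WT libraries, where WT replicate 1 was more than double the others. Its log2 fold change was -0.20 ± 0.44. Msi2 spread in the same libraries, with 68.5, 199 and 101 CPM in cKO libraries and 157, 74.0 and 66.8 CPM in WT libraries (0.31 ± 0.49).

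The identity genes differed in how far they followed these libraries. Nes, Pax6, Prom1, Fabp7, Msi2, Nr2e1 and Rfx4 were each highest in cKO replicate 2 among cKO libraries and in WT replicate 1 among WT libraries. Msi1 and Cd9 were lowest in both. Within a group the highest over the lowest library reached 2.91 for Msi2 and 2.37 for Nes in cKO cells, and 3.06 for Fabp7 in WT cells. For Vim it was 1.26 in cKO cells and 1.06 in WT cells. Without cKO replicate 2 and WT replicate 1, no identity gene passed either, and log2 fold changes were 0.35 ± 0.20 for Nes, 0.18 ± 0.19 for Vim, 0.24 ± 0.18 for Fabp7, 0.27 ± 0.20 for Msi2 and -0.56 ± 0.30 for Prom1. Of the other 5 genes at day 5, Pax6 averaged 16.9 ± 3.5 CPM in cKO and 16.3 ± 3.5 CPM in WT libraries, and Nr2e1 18.4 ± 3.8 CPM in cKO and 18.5 ± 2.1 CPM in WT libraries (SD, n = 3 each). Rfx4 averaged 141 ± 20.4 CPM in cKO and 136 ± 28.1 CPM in WT libraries, and Msi1 47.0 ± 7.5 CPM in cKO and 48.0 ± 7.4 CPM in WT libraries. Cd9 averaged 123 ± 26.1 CPM in cKO and 143 ± 18.5 CPM in WT libraries. All of these differences were within the spread of the libraries. Their log2 fold changes with all 6 libraries and without those 2 were 0.049 and 0.060 for Pax6, -0.0054 and -0.085 for Nr2e1, 0.058 and 0.13 for Rfx4, -0.028 and -0.063 for Msi1, and -0.22 and -0.15 for Cd9.

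Per transcript length, the day 5 order by mean rescaled TPM in cKO cells was Vim at 3358, Fabp7 at 1606, Nes at 206, Cd9 at 171, Rfx4 at 62.0, Msi2 at 41.8, Msi1 at 29.9, Pax6 at 12.6, Nr2e1 at 9.51 and Prom1 at 1.14. In WT cells it was Vim at 3206, Fabp7 at 1970, Cd9 at 202, Nes at 148, Rfx4 at 61.6, Msi2 at 35.5, Msi1 at 31.5, Pax6 at 13.7, Nr2e1 at 10.5 and Prom1 at 1.57. The orders differ only in Nes and Cd9, whose libraries overlapped in both groups. Rfx4 with Msi2, Msi2 with Msi1 and Pax6 with Nr2e1 also overlapped in both groups, and Vim with Fabp7 in WT cells. The order of these neighbours is thus not resolved.

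The change at day 9 minus that at day 5 was tested over all 12 libraries, where 7.71% of 15323 genes passed, 2.57% upward and 5.14% downward. Of the 10 identity genes 2 passed, both downward. The difference was -2.49 ± 0.41 for Nes on the log2 scale, with an edgeR adjusted p of 0.00356, and -1.22 ± 0.21 for Vim, with an adjusted p of 0.00502. Nes and Vim passed without any single library as well. On log2 TPM in limma, neither passed as deposited (adjusted p = 0.118 for Nes and 0.738 for Vim), and on rescaled TPM with 1 or 0.1 added Nes passed but Vim did not (adjusted p = 0.0591 and 0.0582 for Vim). Fabp7 did not pass (-1.14 ± 0.51, edgeR adjusted p = 0.255), and without WT replicate 1 of day 5, its highest library, it did (-1.80 ± 0.30, adjusted p = 0.00566). Prom1 did not pass (1.44 ± 0.49, edgeR adjusted p = 0.123), and without cKO replicate 2 of day 5 it did (1.70, adjusted p = 0.0426). For Pax6, Msi2 and Cd9 the difference was 0.62 ± 0.30, 0.61 ± 0.59 and 0.68 ± 0.27, with edgeR adjusted p from 0.196 to 0.632, so their rise at day 9 was not shown to differ from day 5. No level was compared across days, because each day has its own table and the 2 cannot be told apart.

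**Figure D4:**
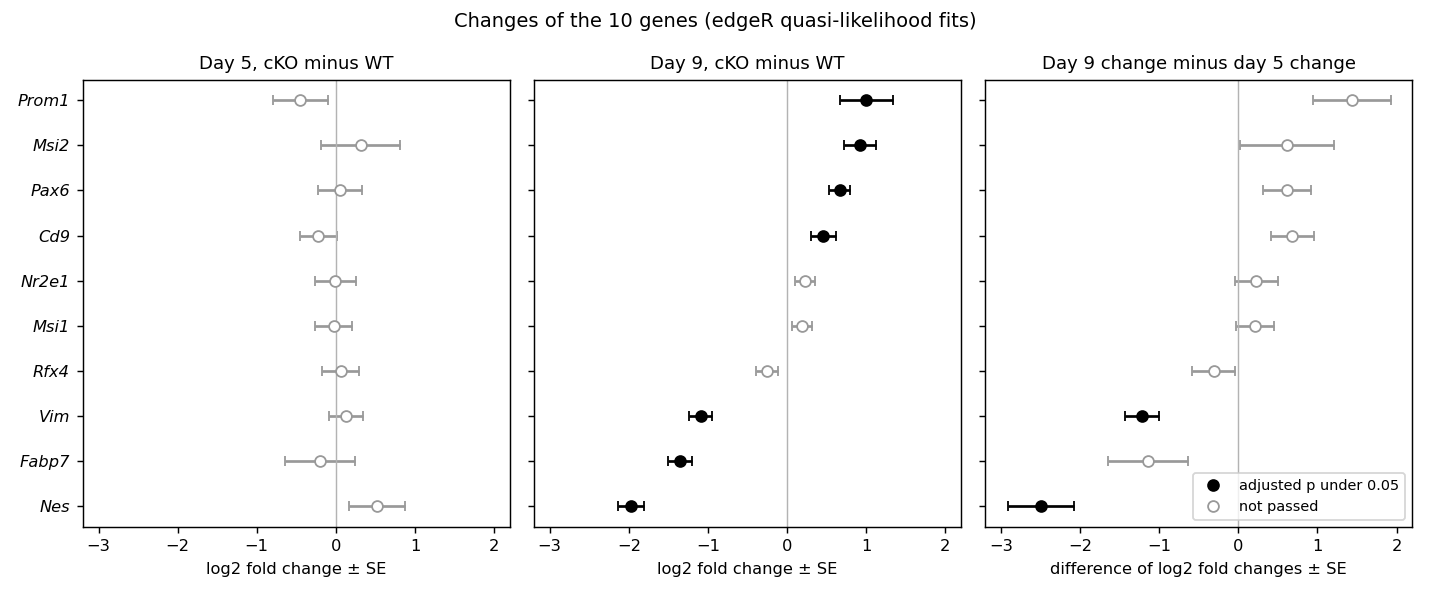
Log2 fold changes of cKO minus WT at day 5 and day 9, and the day 9 change minus the day 5 change, as points with standard errors from edgeR; filled points have an adjusted p under 0.05. At day 9 the points run from -1.97 for Nes to 0.998 for Prom1, and in the right panel Nes and Vim are filled.

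Beyond the 10 genes, a list of 30 other neural stem and progenitor genes had 3 called higher and 12 called lower at day 9, against 21.0% higher and 22.6% lower among all tested genes. The median log2 fold change of the list was -0.31, against 0.01 over all tested genes, and 0 of the list were called at day 5. The lower ones included Ccnd2, a D-type cyclin, at 57.2 ± 11.1 CPM in cKO and 502 ± 100.2 CPM in WT libraries (SD, n = 3 each; log2 fold change -3.14 ± 0.20, edgeR adjusted p = 2.68e-05). Hes1, a repressor induced by Notch, was at 1.51 ± 0.23 CPM in cKO and 12.4 ± 2.5 CPM in WT libraries (-2.99 ± 0.22, edgeR adjusted p = 4.75e-05). Tead2, Fgfr1, Emx2 and Fgfr3 also fell, by 1.87, 1.14, 1.10 and 0.62 on the log2 scale. Id4, an inhibitor of basic helix-loop-helix factors, rose to 36.1 ± 7.4 CPM in cKO cells, against 6.13 ± 1.45 CPM in WT cells (2.56 ± 0.22, edgeR adjusted p = 0.000117). The list holds 12 lower and 3 higher genes, and the 10 identity genes 3 lower and 4 higher; the difference was not tested.

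Genes of other cell states moved at day 9 beside the identity genes, in counts to be read against the 21.0% higher and 22.6% lower among all tested genes. Of 12 genes of dividing cells 11 fell, with summed levels between 108 and 130.4 CPM in cKO libraries and between 625 and 836 CPM in WT libraries. Of 10 tested astrocyte markers 8 rose and 1, Fgfr3, which is also among the other stem genes, fell, with sums between 2383 and 2801 CPM in cKO and between 1168 and 1512 CPM in WT libraries. The oligodendrocyte lineage markers split, with 8 of 11 tested higher and 3 lower, with sums between 3550 and 4389 CPM in cKO and between 2209 and 2618 CPM in WT libraries. Of 10 tested neuron markers 7 rose, with sums between 535 and 602 CPM in cKO and between 137 and 303 CPM in WT libraries, and Slc17a6 was at 0 in every library. Abundant genes carry much of the neuron and oligodendrocyte lineage sums. Map2, a neuron marker, averaged 390 CPM in cKO and 147 CPM in WT libraries. In the oligodendrocyte lineage, Gpr17 averaged 2021 CPM in cKO and 356 CPM in WT libraries. Olig1, which fell, averaged 630 CPM in cKO and 1536 CPM in WT libraries. With cKO replicate 2 as the only cKO library there is no spread among cKO libraries, so no calls are given for these lists in that setting. The sums above do not overlap between the groups, and neither do Nes, Fabp7, Vim, Pax6, Msi2, Cd9, Prom1 and Nr2e1 on CPM. The part of these lists in the results of the identity genes was not tested. All 5 tested ependymal markers fell, but only 2 or 3 of them did without any 1 library. Their sums were 8.26 to 10.8 CPM in cKO and 17.1 to 17.7 CPM in WT libraries, with Tmem212 at 0. Microglia and macrophage markers summed to at most 1.27 CPM in cKO and 0.349 CPM in WT libraries, with Aif1 and C1qa at 0. Endothelial markers, with 1 tested and higher, summed to at most 3.38 CPM in cKO and 2.19 CPM in WT libraries, with Cdh5 at 0. Mural and fibroblast markers, with 1 higher and 1 lower of 2 tested, summed to at most 3.38 CPM in cKO and 1.81 CPM in WT libraries, with Lum at 0. At day 5 no gene of these lists passed.

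Likeness to Nes and Prom1 was measured as the distance of log2(CPM + 1) profiles, centred within each day, over 12 libraries. Genes chosen by this distance have changes near those of Nes or Prom1 by construction, so their changes are only a description. Of 9864 genes with a mean of at least 5 CPM, the nearest to Nes was Jag1, a ligand of Notch receptors, at a distance of 0.38, followed by Ubash3b at 0.63, Cd44 at 0.64, Bard1 at 0.65 and Ticrr at 0.66. Jag1 changed by -2.14 at day 9 and 0.40 at day 5 on the log2 scale, beside -1.97 and 0.52 for Nes. The nearest to Prom1, which itself lay below 5 CPM in every library, were Cyp7b1 at 0.62, Atp5s at 0.66, Trub1 at 0.69, Them4 at 0.69 and Nkiras1 at 0.73. In that order they changed by 0.96, 0.53, 0.64, 0.72 and 0.85 at day 9 on the log2 scale, beside 0.998 for Prom1. Atp5s was not called there (edgeR adjusted p = 0.0784). Their day 5 changes lay between -0.10 and 0.0084, beside -0.45 for Prom1.

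**Figure D5:**
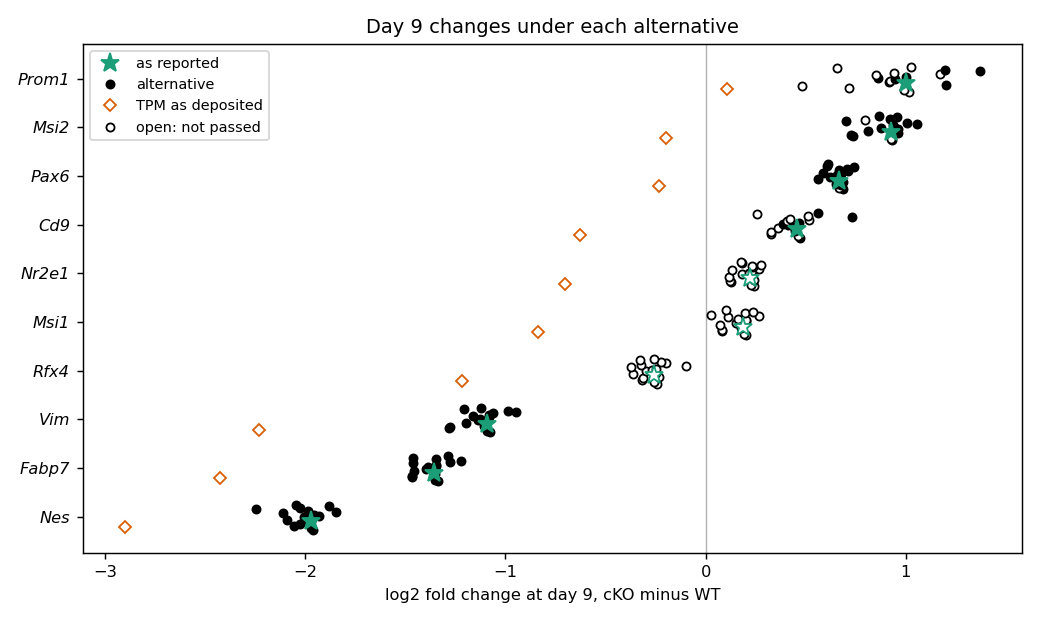
Log2 fold changes at day 9, cKO minus WT, as reported (star) and under 18 alternatives (circles; diamonds for TPM as deposited); open symbols did not pass at an adjusted p of 0.05. Circles for Nes, Fabp7 and Vim are all filled and lie below 0, while those for Prom1 and Cd9 are partly open. Pax6 and Msi2 are open with all 12 libraries in 1 fit. The circle for cKO replicate 2 as the only cKO library shows a value, and its fill is not read as a test.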

How the data were processed

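RNA was sequenced from 12 libraries, 3 for each genotype and day. The authors deposited expected counts and TPM for each gene, in a pair of tables per day. Per the submitters' processing notes, RSEM and Bowtie2 were used with mm10. The sources used here do not give versions, annotation, trimming or strand use. Expected counts were rounded. A symbol was found for 97.96% of the Ensembl identifiers at day 5, and 97.75% of the day 9 symbols matched the reference names. Tests used edgeR 4.0.16 in R 4.3.3 (filterByExpr, TMM, robust quasi-likelihood fit and test), adjusted by Benjamini-Hochberg over all tested genes at a threshold of 0.05. Each day was fitted on its own 6 libraries, with no covariate. The day difference used 12 libraries and symbols found once in both tables. Each log2 fold change is the cKO value minus the WT value, and its standard error comes from F. The fits were tested on simulated data. Deposited TPM, which are not counts, gave the ratios and, rescaled to a common total without the structural RNA features, the levels per length.

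Alternatives were DESeq2 1.42.0, limma-voom (limma 3.58.1), upper quartile scaling, removal of structural RNA, no filter, limma on log2(TPM + 1) and on rescaled TPM with 1 or 0.1 added, each library left out, the replicate number as a block, all 12 libraries in 1 fit, 2 libraries left out together, and the structural RNA share as a covariate. The text names all 10 members, Lmnb1, of the other stem genes the 8 with the smallest p at day 9, 1 of which is not reported here, and the 5 genes nearest to Nes and to Prom1, the members with the lowest and highest change. Sox2 was added because its promoter drives Cre, and Map2, Gpr17 and Olig1 for their part in the summed levels. The members and lists were chosen with earlier results of these data known.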

Additional observations from a re-analysis of the deposited data

Results flagged for a closer look

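The change from WT to cKO differed between day 9 and day 5, in the edgeR test of the difference over all 12 libraries, for 2 of the 10 identity genes: the day 9 change minus the day 5 change was -2.49 for Nes and -1.22 for Vim on the log2 scale. It also differed for 6 of the 7 named genes among the other neural stem and progenitor genes, at -3.57 for Ccnd2, -3.07 for Hes1, 2.56 for Id4, -1.09 for Fgfr1, -1.80 for Tead2 and -1.15 for Emx2. These genes were chosen for a small p at day 9, so their count is a description; over the whole list of 30, 1 was called upward and 6 downward, against 2.57% and 5.14% of all tested genes. In 21 alternatives the call was kept in 5 for Fgfr1, 5 for Tead2, 8 for Emx2, 20 for Hes1, 20 for Id4 and 21 for Ccnd2, against 19 for Nes and 17 for Vim.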

How the results depend on the processing

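At day 9 the count of called identity genes, 7 as reported, was 3 with all 12 libraries in 1 fit and 0 on log2(TPM + 1) as deposited. The count of higher genes, 4 as reported, was 2 with no filter and on rescaled TPM with 1 or 0.1 added, 0 with all 12 libraries and 0 on deposited TPM, and 2 to 3 with each library left out; that of lower genes, 3 as reported, was 0 on deposited TPM only. On deposited TPM, where structural RNA takes a share of the total that differs between libraries and the median of all genes was -0.786, Pax6, Msi2 and Cd9 reversed to -0.23, -0.20 and -0.63 (0.55, 0.59 and 0.16 relative to that median), with none of them called. Leaving aside the setting with a single cKO library, Nes, Fabp7 and Vim were called in every alternative but deposited TPM. The calls of Pax6 and Msi2 ended there and with all 12 libraries in 1 fit. Cd9 was called in DESeq2, limma-voom, upper quartile scaling, removal of structural RNA, the replicate block, the structural RNA covariate, and without cKO replicate 3. Prom1 was called in limma-voom, upper quartile scaling, removal of structural RNA, the structural RNA covariate, and without cKO replicate 1.

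For the day difference the 2 calls, both lower, became 1 on rescaled TPM with 1 or 0.1 added and 0 on deposited TPM. With each library left out the count of higher genes was 0 to 1, the 1 being Prom1 without cKO replicate 2 of day 5.

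The replicate numbers share only a number: deviations of same-numbered libraries correlated at -0.721, -0.498 and 0.534 at day 5 and at -0.00138, -0.2 and -0.0628 at day 9. At day 5 cKO replicate 2 correlated best with WT replicate 1 (0.757). With the replicate number as a block, the day difference called 0 identity genes, with edgeR adjusted p of 0.0715 for Nes and 0.0784 for Vim. Over all 15323 tested genes the same fit called 81 upward and 241 downward. Prom1 was not called at day 9 under the block (edgeR adjusted p = 0.0616). Lmnb1 was not called at day 5 under the block, and the other 6 day 9 calls of identity genes were kept. Depth limits Prom1, with 12 counts in its lowest library.

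Among the 30 other stem genes at day 9, 7 rather than 12 were lower with all 12 libraries in 1 fit, 5 rather than 3 were higher in DESeq2, and 2 were lower and 0 higher on deposited TPM. The 5 lower ependymal markers became 2 or 3 in most alternatives. The cause of these differences was not tested.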
